A study of Mus musculus with 4 samples.

Results

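The 9 genes described here encode the enzymes that write and oxidise 5-methylcytosine in mouse embryonic stem cells, together with the UHRF proteins that read hemimethylated DNA: Tet1, Tet2, Tet3, Dnmt1, Dnmt3a, Dnmt3b, Dnmt3l, Uhrf1 and Uhrf2. They were taken by symbol, each from probe sets annotated to that symbol alone, and where a gene had several such probe sets the one with the highest mean was used. All 9 were measured, among 18820 genes compared. The knockout samples, KAP_KO, are mouse embryonic stem cells of the KAP1 fl/fl genotype after conditional knockout of Trim28 (also called KAP1). The wild-type samples, KAP_WT, are embryonic stem cells labelled wild type, and both groups carry the treatment label 4-OH-tamoxifen. Each group has 2 biological replicates on 1 Affymetrix array each, from cells grown on irradiated embryonic fibroblasts (MEFs) and exposed to 4-hydroxy-tamoxifen or ethanol vehicle for 24 h, then kept 48 h without it. The sources used here do not give the Cre driver, the number of lines or clones, or whether feeders were removed, and they do not settle whether the wild-type samples are the floxed line before deletion or a separate line, so differences between lines and the loss of Trim28 cannot be told apart.

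DNMT3A and DNMT3B place methyl groups on unmethylated CpG sites, with DNMT3L as a catalytically inactive cofactor. DNMT1 copies the marks to the new strand at replication, where UHRF1 recruits it to hemimethylated sites. The TET dioxygenases oxidise 5-methylcytosine to 5-hydroxymethylcytosine and beyond, which starts active demethylation or dilutes the mark over cell divisions. In mouse embryonic stem cells TET1 and TET2 are the main TET enzymes, TET3 is known chiefly from the oocyte and zygote, and DNMT3B rises as cells leave the naive state. KRAB zinc finger proteins recruit TRIM28, which with SETDB1 maintains H3K9 methylation at retroelements and imprinted loci. The arrays measure transcripts, so neither DNA methylation nor protein was measured.

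Values are log2 expression per probe set. A gene was called when limma's two-sided p-value, adjusted over all 18820 genes by the Benjamini-Hochberg method, was under 0.05. Trim28 itself had values of 8.97 and 8.92 in the knockout samples, against 11.29 and 11.37 in the wild-type samples (limma adjusted p = 3.39e-05). The 12 markers of embryonic stem cells chosen for this work were all measured, with mean levels of 9.81 and 9.55 in the knockout arrays and of 10.31 on both wild-type arrays, and 9 of them fell (2 when either wild-type array was dropped, 6 without knockout replicate 2). Among all genes 12.7% fell. Precision is limited by having only 2 arrays a group, for which an exact two-sided permutation test over samples cannot go below p = 0.333. Signal differs between probe sets for reasons unrelated to abundance, so the genes are not ranked by level. In bulk RNA, fewer cells of a type and less RNA per cell cannot be told apart.

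Promoter sequence is shown for 4 of the genes, those with the largest fall (Tet2), its paralog Tet1, the largest rise (Uhrf2) and the de novo methyltransferase that rose (Dnmt3b), each of which has 1 promoter in the RefSeq table (GRCm38.p6). Each run is the 250 bases before the transcript start, 5′ to 3′ on the gene's strand, with CpG dinucleotides, the sites these enzymes act on, in capitals. Other transcripts of these genes begin elsewhere, so 250 of these bases for Tet2, 145 for Tet1, 38 for Dnmt3b and 83 for Uhrf2 fall inside the gene's full annotated span.
Tet2 (chr3:133544391-133544640, minus strand): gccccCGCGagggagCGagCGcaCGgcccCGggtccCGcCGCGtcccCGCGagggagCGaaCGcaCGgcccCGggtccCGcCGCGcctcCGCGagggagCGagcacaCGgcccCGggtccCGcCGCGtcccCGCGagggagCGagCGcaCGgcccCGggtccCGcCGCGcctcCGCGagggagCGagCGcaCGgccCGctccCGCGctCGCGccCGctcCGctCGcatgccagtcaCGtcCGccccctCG
Tet1 (chr10:62887325-62887574, minus strand): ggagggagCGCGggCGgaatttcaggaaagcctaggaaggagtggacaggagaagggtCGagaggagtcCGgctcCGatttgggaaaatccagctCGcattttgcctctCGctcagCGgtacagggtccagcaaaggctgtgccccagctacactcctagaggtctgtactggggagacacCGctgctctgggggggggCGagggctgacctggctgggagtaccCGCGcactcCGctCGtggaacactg
Dnmt3b (chr2:153649199-153649448, plus strand): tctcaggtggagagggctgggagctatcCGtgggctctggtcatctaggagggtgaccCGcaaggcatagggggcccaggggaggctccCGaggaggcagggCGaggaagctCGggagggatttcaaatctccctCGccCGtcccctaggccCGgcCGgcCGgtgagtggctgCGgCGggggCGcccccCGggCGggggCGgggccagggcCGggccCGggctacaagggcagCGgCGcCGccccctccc
Uhrf2 (chr19:30030263-30030512, plus strand): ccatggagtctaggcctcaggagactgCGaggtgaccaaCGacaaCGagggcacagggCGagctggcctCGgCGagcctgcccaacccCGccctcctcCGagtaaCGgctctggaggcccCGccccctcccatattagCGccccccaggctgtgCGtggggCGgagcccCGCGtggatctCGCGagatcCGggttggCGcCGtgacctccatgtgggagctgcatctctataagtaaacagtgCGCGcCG

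The Tet2 window holds 51 CpG sites, more than 99.9% of the 32851 promoter windows of the table. The Tet1 window holds 15 CpG sites, the Dnmt3b window 21 and the Uhrf2 window 23, against a median of 6 over all windows. Part of the Tet2 count comes from a tandem repeat, in which the word caCGgcccCGggtccCGcCGCG of 22 bases, itself holding 5 CpG sites, occurs 4 times at a spacing of 42 bases. In 2.04% of all windows some word of 15 bases occurs at least as often. The GC box GGGCGG, searched on both strands with overlapping matches allowed, occurs 3 times in the Dnmt3b and Uhrf2 windows and 1 time in the Tet2 and Tet1 windows, and 32.7% of all windows hold it. The words CCAAT (in 33.8% of all windows), ATGCNAAT (2.86%) and TTTNGCGC (1.13%) were not matched in these 4 windows on either strand. DNA methylation at these sites was not measured.

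Of the 9 genes, 3 fell (Tet1, Tet2 and Uhrf1), 3 rose (Tet3, Dnmt3b and Uhrf2) and 3 did not pass the test (Dnmt1, Dnmt3a and Dnmt3l). Over all genes 26.9% were called, 14.2% higher and 12.7% lower in the knockout. The median change of the 9 was -0.15 on the log2 scale and that of all genes -0.05, while the median size of the change, without its sign, was 0.45 for the 9 and 0.18 for all genes. The figures for all genes include dim genes and were not matched to the level of the 9. With genes below the lower quartile of level removed, 5078 of 14115 genes were called. The knockout and wild-type samples did not overlap for any of the 9, as was the case for 65.2% of all genes. A call at a change of at least 2-fold was made for 1 of the 9, Tet2, and for 5.89% of all genes. Tet2 and Uhrf2 were called in each of the 12 alternative settings tried. The calls of Tet1, Tet3, Uhrf1 and Dnmt3b were not: without knockout replicate 2 or without wild-type replicate 1, Tet2 and Uhrf2 were the 2 members called, and without wild-type replicate 2 Dnmt3b was called beside them.

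**Figure D1:**
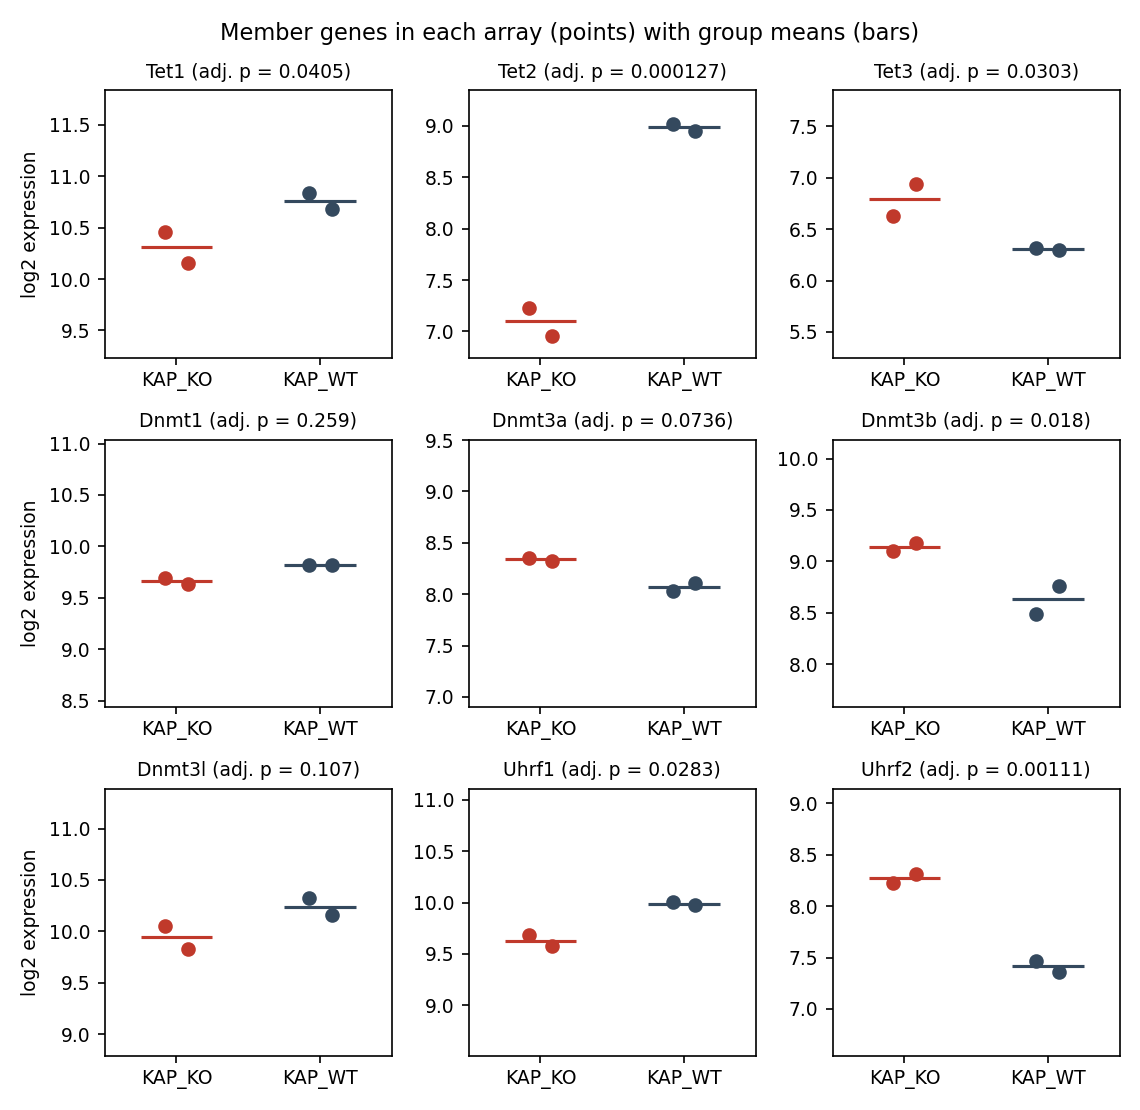
Log2 expression (vertical axis, a span of the same height in each panel) of the 9 genes in the 2 knockout arrays (red, left) and the 2 wild-type arrays (dark, right), with group means as bars and limma's adjusted p above each panel. Tet2 shows the widest gap, at 7.23 and 6.96 in the knockout against 9.02 and 8.95 in the wild type.

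Tet2, which encodes a dioxygenase that lacks the CXXC DNA-binding domain of the full-length TET1 and TET3 proteins, lies on chromosome 3 (gene 133463677 to 133545136, GRCm38.p6). Its probe set 10502284 read 7.23 and 6.96 in the knockout samples, against 9.02 and 8.95 in the wild-type samples. Both knockout samples lay far below both wild-type samples. The mean was 7.10 ± 0.19 in the knockout and 8.99 ± 0.05 in the wild type (SD, n = 2 each), a log2 change of -1.89 (SE 0.12, limma adjusted p = 1.27e-04). The knockout level was 26.9% of wild type, with a 95% confidence interval of 22.2 to 32.6%. Among all 18820 genes it was the 31st lowest change, and 98.7% of genes changed by less in either direction. With single samples left out the change lay between -2.03 and -1.76.

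Tet1, the TET gene with a CXXC domain that is a hallmark of embryonic stem cells, lies on chromosome 10 (62804570 to 62887469). It was read by 3 probe sets annotated to it alone. The brightest, 10369702, gave 10.46 and 10.16 in the knockout samples and 10.84 and 10.68 in the wild-type samples. The groups did not overlap, but the nearest samples of the 2 groups were closer together than the 2 knockout samples. The change was -0.45 (SE 0.13, limma adjusted p = 0.0405), a knockout level of 73% of wild type (95% confidence interval 59.1 to 90.2%). The other 2 probe sets, 10369690 and 10369688, had larger falls of -0.57 and -0.80, with adjusted p-values of 0.0198 and 0.0157 when every single-gene probe set was tested. Their values in the knockout were 9.97 and 9.70 for 10369690 and 9.48 and 8.99 for 10369688, against 10.49 and 10.32, and 10.10 and 9.97, in the wild type. Knockout replicate 2 was the lowest sample in all 3. Without it the change of the brightest probe set was -0.30 (limma adjusted p = 0.168), and without wild-type replicate 1 or 2 the adjusted p was 0.211 and 0.114.

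Tet3, on chromosome 6 (83362373 to 83457208), went the other way. Probe set 10545682 read 6.63 and 6.94 in the knockout samples, against 6.32 and 6.30 in the wild-type samples. Both knockout values were higher, and they differed from each other by as much as the nearer one differed from the wild type. The change was 0.47 (SE 0.12, limma adjusted p = 0.0303), or 139% of wild type (95% confidence interval 113 to 170%). The second probe set, 10545692, did not show it, with 5.54 and 5.69 in the knockout and 5.42 and 5.62 in the wild type, a change of 0.10 (adjusted p = 0.581). With the mean of both probe sets the change of Tet3 was 0.28 (adjusted p = 0.105). Its call also ended without knockout replicate 2 (0.32, adjusted p = 0.126) and when either wild-type sample was dropped (0.48, adjusted p = 0.139 for replicate 1; 0.46, adjusted p = 0.153 for replicate 2).

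On their brightest probe sets the 3 TET genes therefore did not share a direction, although the calls of Tet1 and Tet3 were not kept in every setting. The confidence interval of the Tet2 change, -2.17 to -1.62, did not overlap that of Tet1, -0.76 to -0.15, or that of Tet3, 0.18 to 0.77. Tet1 fell less than Tet2 by 1.44 on the log2 scale, and the change of Tet3 stood above that of Tet2 by 2.37. The difference between these changes was not tested as such.

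**Figure D2:**
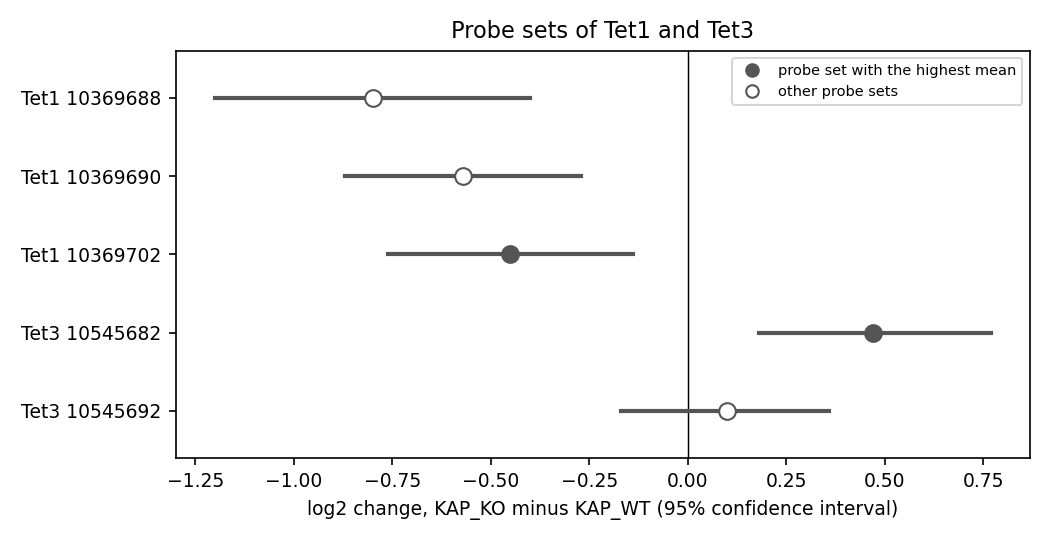
Log2 change, knockout minus wild type, with its 95% confidence interval (horizontal axis) for each probe set annotated to Tet1 or Tet3 alone. Filled points mark the probe set with the highest mean. All 3 Tet1 probe sets lie below 0, from -0.80 to -0.45, while those of Tet3 lie at 0.47 and 0.10.

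Among the de novo methyltransferases Dnmt3b rose. Dnmt3b, on chromosome 2 (153649411 to 153687730), read 9.10 and 9.18 in the knockout samples, against 8.49 and 8.76 in the wild-type samples. The wild-type samples differed more from each other than the knockout samples did. The change was 0.52 (SE 0.12, limma adjusted p = 0.018), or 143% of wild type (95% confidence interval 118 to 174%). It was 0.38 (adjusted p = 0.0965) without wild-type replicate 1 and 0.48 (adjusted p = 0.0634) without knockout replicate 2.

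Dnmt3a, on chromosome 12 (3801559 to 3914443), read 8.35 and 8.32 in the knockout samples and 8.03 and 8.11 in the wild-type samples. Its difference of 0.27 (SE 0.09) missed the threshold (limma adjusted p = 0.0736), and its confidence interval ran from 104 to 140% of wild type. Dnmt3l, the cofactor gene on chromosome 10 (78042287 to 78063622), read 10.05 and 9.83 in the knockout samples and 10.32 and 10.16 in the wild-type samples. The difference was -0.30 (SE 0.12, limma adjusted p = 0.107), with an interval of 67.1 to 98.5% of wild type. Knockout replicate 1 and wild-type replicate 2 were close, so single samples carry much of this difference, which was -0.19 without knockout replicate 2 and -0.41 without knockout replicate 1.

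Of the maintenance machinery, Dnmt1 differed least of the 9 genes. On chromosome 9 (20907206 to 20959888), it read 9.69 and 9.63 in the knockout samples, against 9.82 in both wild-type samples. The difference of -0.15 (SE 0.09, limma adjusted p = 0.259) has an interval of 77.5 to 104% of wild type, which leaves room for a fall of that size or for none. Uhrf1, whose protein brings DNMT1 to hemimethylated DNA, lies on chromosome 17 (56303337 to 56323486) and read 9.68 and 9.58 in the knockout samples, against 10.01 and 9.98 in the wild-type samples. Its change was -0.36 (SE 0.09, limma adjusted p = 0.0283), a fall to 77.6% of wild type (95% confidence interval 66.6 to 90.5%). Its adjusted p was 0.131 without knockout replicate 2, and 0.126 and 0.106 when wild-type replicates 1 and 2 were dropped in turn.

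Uhrf2, the paralog of Uhrf1 whose protein does not replace UHRF1 in maintenance methylation in mouse embryonic stem cells, rose. On chromosome 19 (30030430 to 30093726), it read 8.23 and 8.31 in the knockout samples, against 7.47 and 7.36 in the wild-type samples. The gap between the groups was several times the spread within either. Its mean was 8.27 ± 0.05 in the knockout and 7.42 ± 0.08 in the wild type (SD, n = 2 each), a change of 0.85 (SE 0.09, limma adjusted p = 0.00111). The knockout level was 1.81-fold that of wild type (95% confidence interval 154 to 211% of wild type), and 91.9% of all genes changed by less. With single samples left out the change lay between 0.80 and 0.91. The paralogs Uhrf1 and Uhrf2 thus went opposite ways, with changes 1.22 apart and intervals of -0.59 to -0.14 and 0.63 to 1.08.

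**Figure D3:**
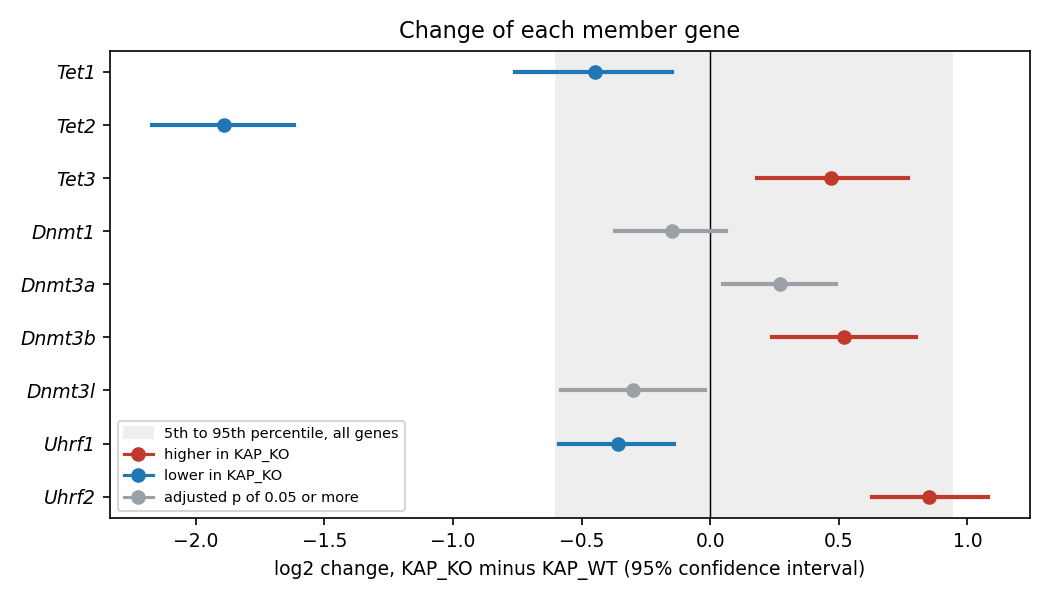
Log2 change, knockout minus wild type (horizontal axis), of each of the 9 genes with its 95% confidence interval. Red marks genes called higher, blue genes called lower and grey genes that did not pass, and the shaded band spans the 5th to 95th percentile of all genes, -0.60 to 0.94. Tet2, at -1.89, is the 1 gene whose whole interval lies outside the band.

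Each gene was also set beside its neighbours, the 20 nearest genes on each side with a mean level at or above the median (24 neighbours in all for Dnmt3a, near a chromosome end). The neighbours of Tet2 had a median change of -0.05, the same as that of all 9410 genes at or above the median level, with 6 of 40 called higher and 10 lower. The neighbours of Uhrf2 had a median of 0.07, with 10 of 40 higher and 6 lower. Tet2 stood below its neighbours by -1.84 and Uhrf2 above them by 0.78. The median was -0.05 around Tet3 and -0.03 around Dnmt3b. It was lower around Tet1 (-0.18, 14 of 40 called lower), Uhrf1 (-0.17, 11 of 40) and Dnmt1 (-0.17, 9 of 40), and the difference of Dnmt1 from its neighbours was 0.01.

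**Figure D4:**
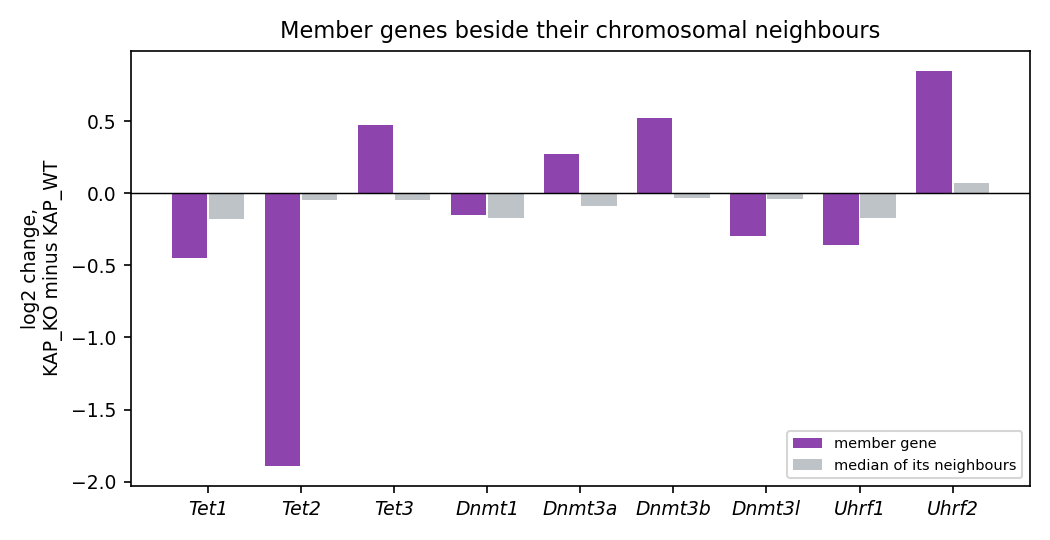
Log2 change, knockout minus wild type (vertical axis), of each of the 9 genes (purple) and the median change of its chromosomal neighbours (grey). Neighbour medians lie between -0.18 around Tet1 and 0.07 around Uhrf2, while Tet2 itself is at -1.89.

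Tet2 was the 1 member called with a change of at least 2-fold, and the genes whose profiles lay nearest to it were sought by the Euclidean distance over the 4 samples after each gene's mean was subtracted. The nearest were Grasp (distance 0.0667), Prdm14 (0.103) and Ankrd35 (0.112). Prdm14, a germ cell and naive pluripotency factor, read 5.71 and 5.45 in the knockout samples, against 7.42 and 7.50 in the wild-type samples, a change of -1.88. Grasp changed by -1.92 and Ankrd35 by -1.85. Over 4 samples in 2 groups this measure says little more than that the changes are of like size.

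The other genes of the pathway were examined in 6 lists, of which 124 of 144 genes were measured. In them 11 genes rose and 41 fell, where 14.2% of all genes rose and 12.7% fell. The array medians over the tested genes were higher in the knockout, and subtracting them moves every change by -0.17. With these array medians subtracted, 7 rose and 68 fell, and 6392 of all 18820 genes fell. The falls numbered 14 without wild-type replicate 1, 12 without wild-type replicate 2 and 25 without knockout replicate 2, and the rises 4, 4 and 7.

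**Figure D5:**
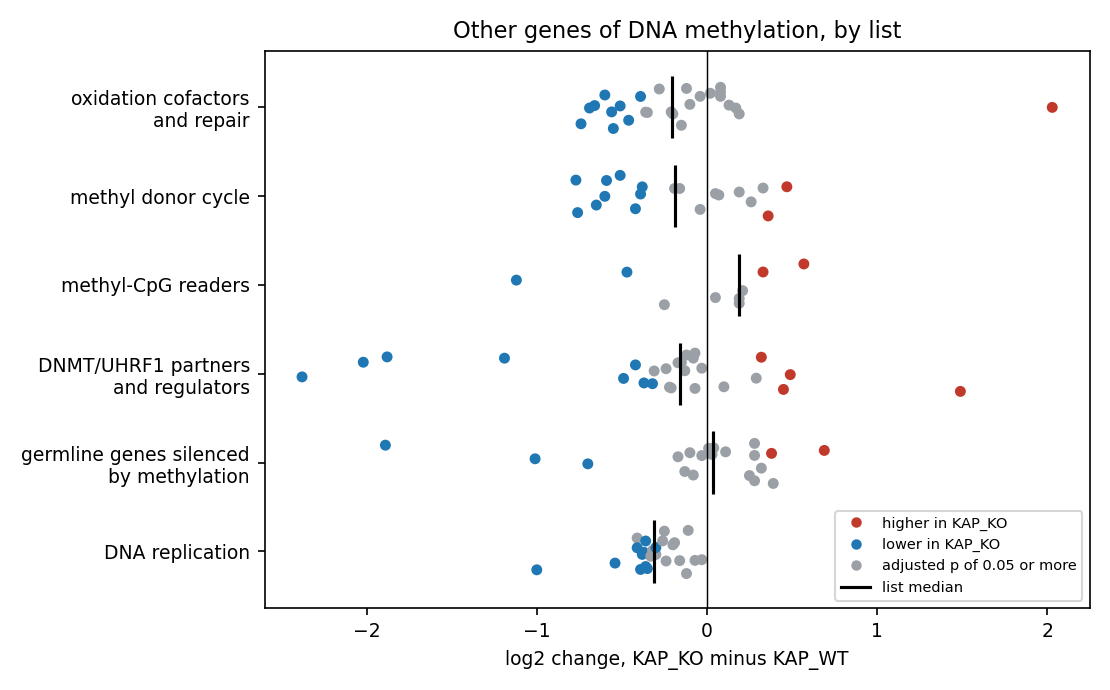
Log2 change, knockout minus wild type (horizontal axis), of the measured genes of the 6 lists, with a black line at each list's median. Blue marks genes called lower, red genes called higher and grey genes that did not pass. The medians run from -0.31 for DNA replication to 0.19 for the methyl-CpG readers.

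In the list of cofactor, repair and deaminase genes, 1 of 26 measured genes rose and 9 fell, with a median change of -0.20. The falls numbered 3 and 2 when wild-type replicates 1 and 2 were dropped in turn. Gadd45g, a stress-inducible gene named in active demethylation, read 7.24 and 7.64 in the knockout samples, against 5.78 and 5.06 in the wild-type samples (log2 change 2.03, SE 0.24, limma adjusted p = 0.00146). Its paralog Gadd45a fell by 0.74 (adjusted p = 0.00214), and Gadd45b read 8.39 and 8.27 in the knockout and 8.06 and 8.33 in the wild type (0.13, adjusted p = 0.463). The cytidine deaminase gene Apobec1 fell by 0.69 and Parp1, a poly(ADP-ribose) polymerase of strand-break repair, fell by 0.66. Parp1 lies in a stretch of chromosome 1 where 17 of 40 neighbours were called lower and 8 higher (median -0.25). Parp1 reached an adjusted p of 0.0641 when single wild-type samples were left out. Tdg, the glycosylase that removes 5-formylcytosine and 5-carboxylcytosine, had a change of -0.12 (adjusted p = 0.471). Ogt, an O-GlcNAc transferase that binds TET proteins, had a change of -0.28 (adjusted p = 0.0757).

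Genes of the methionine and folate cycles, which supply S-adenosylmethionine, fell in 9 of 19 measured cases and rose in 2, with a median of -0.19. When either wild-type sample was dropped, 4 fell and 0 rose, and without knockout replicate 2, 6 fell and 1 rose. The mitochondrial folate enzyme genes Mthfd2 (-0.77, limma adjusted p = 0.00184) and Shmt2 (-0.76, adjusted p = 0.00267) led. Shmt2 read 9.58 and 9.36 in the knockout samples, against 10.23 in both wild-type samples. Mtrr, which reactivates methionine synthase, changed by -0.65 and Bhmt, a betaine-homocysteine methyltransferase gene, by -0.60, and these 4 kept their calls with any single sample left out.

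Among methyl-CpG readers 2 of 9 measured genes rose and 2 fell (median 0.19). Zfp57, a KRAB zinc finger protein that binds methylated imprint control regions and recruits TRIM28, read 9.80 and 9.61 in the knockout samples, against 10.79 and 10.86 in the wild-type samples. Its change was -1.12 (SE 0.10, limma adjusted p = 5.45e-04), in a stretch of chromosome 17 where 18 of 40 neighbours were called lower (median -0.31). Zbtb38 changed by -0.47, with its call lost when either wild-type sample was dropped (adjusted p up to 0.084). Mbd2 changed by 0.57, with its call lost without wild-type replicate 2 (adjusted p = 0.0809), and Mbd1 by 0.33, with its call lost when any single sample was dropped (adjusted p up to 0.182). With array medians subtracted 1 reader was called higher.

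In the list of DNMT and UHRF1 partners and regulators, 4 of 26 measured genes rose and 8 fell, with a median of -0.16. Without wild-type replicate 1, 1 rose and 3 fell, without wild-type replicate 2, 2 rose and 3 fell, and without knockout replicate 2, 2 rose and 6 fell. Trim28, the deleted gene, is among those that fell. Prdm14, which represses Dnmt3b in mouse embryonic stem cells, has been given above. Tcl1 changed by -2.02 (limma adjusted p = 0.00323, up to 0.0561 when single wild-type samples were dropped) and Morc1, which silences transposons in the male germline, by -1.19. Dppa3, whose protein keeps UHRF1 from chromatin, rose, with 8.37 and 8.14 in the knockout samples against 6.82 and 6.70 in the wild-type samples (log2 change 1.49, SE 0.11, adjusted p = 2.57e-04). It lies on chromosome 6 among neighbours of which 16 of 40 were called higher (median 0.28). Hells, a chromatin remodeller needed for methylation of repeats, changed by -0.32 (adjusted p = 0.0395, up to 0.153 with single samples left out). Setdb1 (-0.21, adjusted p = 0.126), the replication clamp gene Pcna (-0.17, adjusted p = 0.251) and Trdmt1, an RNA methyltransferase of the DNMT family (-0.07, adjusted p = 0.648), did not pass.

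Of the germline genes known to be silenced by DNA methylation, 2 of 20 measured rose and 3 fell, with a median of 0.03. That is 25% called, against 26.9% of all genes. Mael, of the piRNA pathway, read 6.37 and 6.49 in the knockout samples, against 8.04 and 8.59 in the wild-type samples (log2 change -1.89, SE 0.18, limma adjusted p = 5.93e-04). It lies in a stretch of chromosome 1 where 24 of 40 neighbours were called lower (median -0.49). Tex19.1 changed by -1.01, with its call lost without wild-type replicate 2 (adjusted p = 0.0771). Sycp3, a synaptonemal complex gene, changed by -0.70, with its call lost without knockout replicate 2 or either wild-type sample (adjusted p up to 0.157). The falls in this list numbered 1 without wild-type replicate 2. Tdrkh rose by 0.69 and Dazl, an RNA-binding protein gene of germ cells, by 0.38; the Dazl call was lost with any single sample left out (adjusted p up to 0.115).

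DNA replication genes were read beside Dnmt1 and Uhrf1, whose transcripts are known to be most abundant in S phase. Of 24 measured, 10 fell and 0 rose by limma, and at an unadjusted p under 0.05 the counts were 16 and 0. Their median was -0.31, beside changes of -0.36 for Uhrf1 and -0.15 for Dnmt1. Pola1, a DNA polymerase alpha subunit gene, read 7.36 and 7.03 in the knockout samples, against 8.34 and 8.04 in the wild-type samples, or 50.1% of wild type (limma adjusted p = 0.00377). Mcm10 changed by -0.54, Mcm6 by -0.41 and Ccne1 by -0.39, and none of these kept its call when either wild-type sample was dropped (adjusted p up to 0.0718, 0.101 and 0.119). The count of falls was 21 with array medians subtracted, 6 and 2 without knockout replicates 1 and 2, and 1 when either wild-type sample was dropped.

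Markers of cell state and of other cells moved in the same samples, in which 14.2% of all genes rose and 12.7% fell by limma. Of the 12 stem cell markers, Fgf4 (-1.47), Klf4 (-1.34), Esrrb (-1.11) and Sox2 (-0.85) had the largest falls and 0 rose by limma, adjusted or not. Klf4, Esrrb and Sox2 lost their calls when either wild-type sample was dropped (adjusted p up to 0.1, 0.0655 and 0.0771), where 2 of the 12 were called lower. Of 15 naive-state genes 12 fell and 1, Dppa3, rose (median -1.11), led by the nuclear receptor gene Nr0b1 (-2.62) and Tbx3 (-2.16). Prdm14, Tcl1 and Dppa3 are in both this list and that of the partners and regulators. Nanog, Zfp42, Esrrb and Klf4, which all fell, are in both this list and that of the stem cell markers. Of 13 measured primed-state genes 9 rose and 0 fell by limma (10 and 0 at an unadjusted p under 0.05, median 1.14). The cadherin gene Cdh2 (3.37), Wnt8a (2.20), Lef1 (2.08) and Zic2 (1.94) led. The 4 not called were Otx2 (0.62), Nodal (0.30), Cer1 (0.08) and Eomes (0.02). Otx2 read 6.39 and 5.48 in the knockout samples, against 5.28 and 5.34 in the wild-type samples.

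The feeder cells are fibroblasts. Of 24 measured fibroblast markers 18 rose and 0 fell by limma (median 1.01), with the same counts at an unadjusted p under 0.05. By limma 14.2% of all genes rose. Their mean level was 6.89 and 6.95 in the knockout samples, against 5.74 and 5.41 in the wild-type samples. The smooth muscle actin gene Acta2 read 10.27 and 10.46 in the knockout samples, against 6.78 and 4.64 in the wild-type samples. Acta2 (4.65), Tagln (4.61), Thbs1 (4.22) and Dcn (2.64) had the largest changes. Thbs1 read 10.37 and 10.74 in the knockout samples, against 7.50 and 5.17 in the wild-type samples. The 6 markers not called were Fn1 (0.03), Thy1 (0.25), Lum (0.18), S100a4 (0.10), Loxl1 (0.34) and Ddr2 (0.14). The collagen genes of this list were all called higher: Col1a1 (1.78), Col1a2 (1.23), Col5a1 (0.97), Col3a1 (0.49) and Col6a1 (0.36). Col1a1 read 7.75 and 7.57 in the knockout samples and 6.13 and 5.63 in the wild-type samples. Col3a1 read 4.98 and 5.17 in the knockout and 4.53 and 4.65 in the wild type. Lum, a matrix proteoglycan gene, read 3.22 and 3.24 in the knockout and 3.20 and 2.91 in the wild type, near the low end of the arrays. The part of these marker shifts in the changes of the 9 genes was not tested.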

How the data were processed

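Biotinylated cDNA from 250 ng of total RNA was read on Affymetrix arrays (Mouse Gene ST 1.1), as the labels' protocols state. The deposited values are log2 expression; per the submitters' processing notes the authors' tools were RMA and affy, whose versions and settings are not given in the sources used here. RMA compresses differences among dim probe sets. No scanner intensities or detection calls were used, so signal over background is unknown. The median of the 35556 probe sets was 4.76 and 4.77 in the knockout and 4.76 and 4.75 in the wild type, but over the tested genes 5.66 and 5.63, against 5.46 and 5.48.

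Titles gave each sample its group and replicate number. Platform annotation gave 21218 probe sets 1 symbol (1881 have several, 12457 none), and 21185 of these matched a gene identifier of the GRCm38.p6 table. The highest-mean probe set per gene left 18820 genes, with no filter on dim genes. Limma 3.58.1 in R 4.3.3 (lmFit and plain eBayes, 2 residual and 4.70 prior degrees of freedom) compared the groups, two-sided, with Benjamini-Hochberg adjustment. P-values measure the spread between these samples only. The fit was tested on simulated data. The named genes are the 9 members, Trim28, the up to 4 largest changes called in each list, a fixed set of pathway genes named whatever their values (1 of them is not reported here) and the 3 profiles nearest to each member called at 2-fold. The collagen genes of the fibroblast list, Morc1, Tfap2c, Hand1, Nanog, Zfp42, Foxa2 and Pdgfra are named outside this rule. So are the uncalled markers of the fibroblast, endoderm, trophoblast and primed-state lists. Those collagen genes, Hand1 and the uncalled markers were named after their values were seen. The members and lists were chosen with earlier results of these data known. Alternatives were the replicate block, a trended or robust prior, a filter on dim genes, quantile normalization, subtraction of array medians, the mean of probe sets, every probe set tested, and each sample left out. The array medians subtracted were those over the tested genes, not those over all probe sets. Without 1 sample, the lone sample of its group is assumed to vary like the other group.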

Additional observations from a re-analysis of the deposited data

How the results depend on the processing

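All 9 genes kept their direction in each of the 12 alternatives, and Tet2 (-2.06 to -1.76) and Uhrf2 (0.68 to 0.91) kept their calls in each. With every one of the 35556 probe sets tested, 12.5% were called and the adjusted p was 0.112 for Tet1 (-0.45), 0.0918 for Tet3 (0.47), 0.0645 for Dnmt3b (0.52) and 0.0729 for Uhrf1 (-0.36); 1 member was then called higher and 1 lower, 5 pathway genes higher and 20 lower, and 1254 of all genes lower. With array medians subtracted, Tet3 missed (0.30, adjusted p = 0.0884), Dnmt1 (-0.32, 0.0278) and Dnmt3l (-0.47, 0.0164) passed, 5 members were lower, 7 pathway genes were higher and 68 lower, and 6392 of all genes were lower, against 2395. Tet3 also missed after quantile normalization (0.39, adjusted p = 0.0672) and with the mean of probe sets (0.28, 0.105). Leaving out 1 sample gave changes of -0.61 to -0.30 for Tet1, 0.32 to 0.63 for Tet3, 0.38 to 0.65 for Dnmt3b and -0.42 to -0.31 for Uhrf1, with 1 to 3 members higher and 1 to 3 lower, 4 to 7 pathway genes higher and 12 to 33 lower, and 1531 to 2405 of all genes higher and 899 to 1945 lower. Of the pathway genes called, those kept without any 1 sample were 3 of 10 for cofactors and repair, 4 of 11 for methyl donors, 1 of 4 readers, 4 of 12 partners, 2 of 5 germline genes and 1 of 10 replication genes. Nothing in the labels pairs the replicate numbers. Deviations of same-numbered samples correlated at 0.15 across genes, and with the replicate block the same 6 members were called (Tet2 -1.89, adjusted p = 3.76e-04; Uhrf2 0.85, adjusted p = 0.00303), with 11 pathway genes higher and 39 lower. Signal over background is unknown, so changes of dim genes have no stated limit.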

Other observations

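Markers of neighbouring lineages were also read beside the methylation genes. Of 12 trophoblast markers 5 rose and 1 fell (median 0.17), where 14.2% of all genes rose and 12.7% fell. Beside Krt8, those that rose were Krt18 (3.36), Krt7 (2.00), Cdx2 (1.03) and Hand1 (0.98). The 6 not called were Gata3 (0.23), Esx1 (0.10), Eomes (0.02), Elf5 (-0.16), Ascl2 (-0.29) and Tead4 (-0.33). Krt8, a simple-epithelial keratin, read 11.19 and 11.52 in the knockout samples, against 7.57 and 8.02 in the wild-type samples (log2 change 3.56, limma adjusted p = 6.79e-05), while Tfap2c, a trophoblast and germ cell factor, fell by 0.81, a call lost when either wild-type sample was dropped (adjusted p up to 0.0567). Of 13 endoderm markers, which share Foxa2 with the primed-state list and Pdgfra with the fibroblast list, 8 rose and 0 fell by limma (median 1.00). At an unadjusted p under 0.05 the counts were 9 and 0. Col4a2 (1.91), Col4a1 (1.85), Gata4 (1.47) and Dab2 (1.39) had the largest changes. The 5 not called were Gata6 (0.26), Sox7 (0.05), Lama1 (0.30), Afp (-0.08) and Ttr (-0.17). The rises numbered 6 and 5 when wild-type replicates 1 and 2 were dropped in turn. Gata4, an endoderm factor, changed by 1.47 in a stretch of chromosome 14 where 29 of 40 neighbours were called higher (median 0.57).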
